A study of Mus musculus with 3 samples.

Results

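The inflammatory chemokines Ccl3, Ccl4 and Ccl5 and the receptor gene Ccr1 were examined in leukocytes from 4T1 mammary tumors, to set the myeloid sources of these transcripts beside the lymphoid ones. The 4 genes were taken by symbol from the 32285 genes of the count tables. Single-cell RNA sequencing of live CD45+ 7AAD- tumor leukocytes had been done for 3 groups, vehicle, p38i and p38KO, with 1 library per group. Every mouse was a female BALB/c of 6 to 8 weeks that received 200000 cells of the 4T1-luc line, a luciferase-marked mammary carcinoma line of BALB/c origin, in the 4th mammary fat pad. Both the vehicle and the p38i mice carried p38a wildtype tumors. From day 4 they received either DPBS or LY2228820, an oral inhibitor of p38 kinase also known as ralimetinib, at 30 mg/kg by daily gavage for 10 days. The p38KO mice carried p38a-KO-H9 cells, a single line in which p38a had been inactivated with CRISPR-Cas9, and their treatment label reads NA. All tumors were taken on day 14, and 3 tumors per group were pooled before the sort. The inhibitor reaches tumor and host cells alike, whereas the deletion is present in the tumor cells alone, so the leukocytes measured here hold no check of the knockout label.

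The proteins of Ccl3 and Ccl4 are also called MIP-1 alpha and MIP-1 beta, and that of Ccl5 is called RANTES. All of them are secreted CC chemokines, small proteins that draw in leukocytes bearing matching receptors. Ccr1, a G protein-coupled receptor of neutrophils, monocytes and macrophages, binds Ccl3 and Ccl5. Ccl3 and Ccl4 are made quickly by activated myeloid cells and by activated lymphocytes, while Ccl5 is a stored product of memory and effector CD8 T cells and NK cells. In tumors these ligands are known both for drawing in T cells and dendritic cells and for drawing in myeloid cells.

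The ligand genes lie on the same chromosome and the receptor gene on another. In GENCODE M21 on GRCm38, Ccl3 (ENSMUSG00000000982) spans chr11:83647844-83649355 on the minus strand and Ccl4 (ENSMUSG00000018930) spans chr11:83662584-83664683 on the plus strand, with 13228 bases between them. Ccl5 (ENSMUSG00000035042) spans chr11:83525778-83530518 on the minus strand, 117325 bases from Ccl3. Each ligand gene has 3 exons. Ccr1 (ENSMUSG00000025804) spans chr9:123962124-123968692 on the minus strand and has 2 exons. No other annotated gene overlaps any of the 4.

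The promoters of Ccl3 and Ccr1 are shown because only these genes had a matched RefSeq window. Both are highest in neutrophils among the cell classes set below, as is Ccl4. Neutrophils yet carry Ccl3 very unevenly and Ccr1 evenly. The windows hold the 250 bases before the RefSeq start of each gene on GRCm38.p6, 5′ to 3′ on the minus strand, at chr11:83649379-83649628 for Ccl3 and chr9:123968693-123968942 for Ccr1. RefSeq windows were matched for 2 of the 4 genes.
Ccl3: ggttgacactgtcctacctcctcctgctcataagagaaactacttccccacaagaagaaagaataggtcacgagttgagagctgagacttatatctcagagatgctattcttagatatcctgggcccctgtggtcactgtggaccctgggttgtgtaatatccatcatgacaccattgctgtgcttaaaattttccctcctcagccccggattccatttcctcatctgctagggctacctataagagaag
Ccr1: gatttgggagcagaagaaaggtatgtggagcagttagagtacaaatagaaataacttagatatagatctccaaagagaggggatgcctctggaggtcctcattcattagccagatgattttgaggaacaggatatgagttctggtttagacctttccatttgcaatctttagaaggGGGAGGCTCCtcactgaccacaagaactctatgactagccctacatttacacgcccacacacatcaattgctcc
Both strands were searched for TATAAA (the TATA box), TGANTCA (an AP-1 site), TGACGTCA (a cyclic AMP response element), a loose form of the NF-kB site (GGG, any 5 bases and CC) and an interferon response element (TTTC, any 2 bases and TTTC). The capitals in Ccr1 mark its single match, to the NF-kB form, which begins 74 bases before the start of the gene, and Ccl3 had no match. Among 32851 RefSeq windows of the same length, TATAAA was present in 12.4%, TGANTCA in 6.75%, TGACGTCA in 1.55%, the NF-kB form in 45.8% and the interferon element in 2.98%. A match is a description of letters only, and the motif in Ccr1 is a common one.

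The tables held 4588, 6343 and 5212 cell barcodes with 21675352, 25996832 and 25997636 unique molecular identifiers (UMIs, tags that mark each captured transcript once) in the vehicle, p38i and p38KO libraries. After filtering, 3820, 4793 and 3859 cells were kept, with a median of 3162, 3038 and 3317 UMIs. The median mitochondrial share of a kept cell was 0.671%, 0.968% and 2.10%. Pairs of libraries shared between 5 and 9 barcodes. Because each group is a single library, no test between groups was possible, batch and group cannot be told apart, and every interval below covers counting error only.

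Cells were assigned to classes by raw counts of a few genes that are not among the 4 examined. Neutrophils were cells with counts of Csf3r or Cxcr2, monocytes had Ly6c2 or Fn1, macrophages had C1qa, dendritic cells (DC) had Flt3, T cells had Cd3e and NK cells had Ncr1, and cells that also held the genes of other classes were left ungated. The gates took 3231 vehicle cells, 4125 p38i cells and 3172 p38KO cells, and values in threes below follow that order of libraries. The vehicle gates held 2009 neutrophils, 439 monocytes, 153 macrophages, 41 DC, 485 T cells and 104 NK cells. The p38i gates held 2439, 752, 168, 74, 586 and 106 cells in that order, and the p38KO gates held 1704, 363, 457, 70, 463 and 115. Macrophages were thus 4.01%, 3.51% and 11.8% of kept cells.

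Marker genes that the gates did not use fitted the class names. Over the libraries, 6 neutrophil markers such as S100a8 and S100a9 summed to between 138718 and 197053 counts per 1000000 UMIs (CPM) in the neutrophil gate and to between 497 and 589 CPM in the T gate. The 5 T cell markers summed to between 5129 and 5425 CPM in the T gate and to between 30.6 and 42.0 CPM in the neutrophil gate. Other gates were less clean. Neutrophil markers summed to between 3276 and 10761 CPM in the monocyte gate. Monocyte markers summed to between 3066 and 3502 CPM in the DC gate, against between 5487 and 6855 CPM of DC markers. They summed to between 7323 and 9256 CPM in the macrophage gate, against between 18662.5 and 28097.5 CPM of macrophage markers. In the NK gate they summed to between 879 and 1099 CPM. All levels below are CPM over the summed cells of a gate. Each transcript carries 1 tag at its 3′ end, so levels of different genes can be compared without dividing by length.

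Most gated counts of Ccl3, Ccl4 and Ccr1 lay in myeloid cells in every library, and neutrophils were the leading gated class for each. Ccl5 was a lymphoid transcript in every library, highest in NK cells and next in T cells. The classes that led did not change with the group, but the shares did. Lymphoid cells were 18.2%, 16.8% and 18.2% of the gated cells and held 21%, 16.6% and 17.8% of the gated UMIs. The lymphoid share of Ccl4 in p38i, 17.5%, was close to these values, so Ccl4 there was no more myeloid than the gated UMIs as a whole. After neutrophils, T cells had the highest Ccl4 level in p38i, at 481 CPM.

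**Figure D1:**
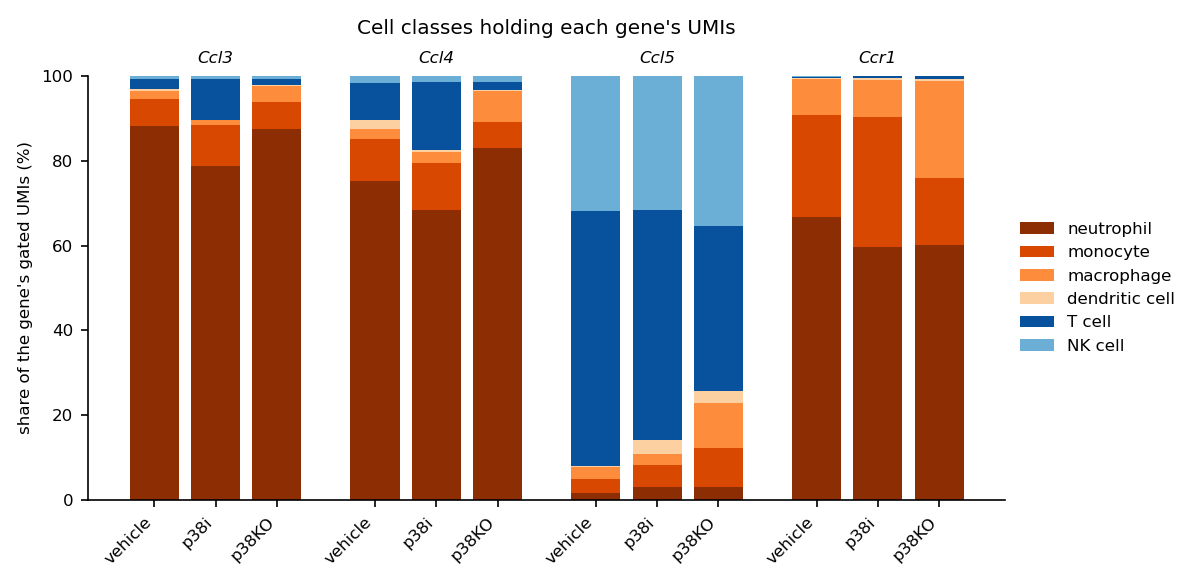
Share of each gene's gated UMIs (percent, stacked bars, 1 bar per library) by gated cell class. Neutrophils hold between 59.5% and 88.3% of Ccl3, Ccl4 and Ccr1, and T and NK cells together hold between 74.4% and 92.1% of Ccl5.

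Of the Ccl5 counts in gated cells, T and NK cells together held 92.1% (95% Clopper-Pearson interval 91.6 to 92.6) in vehicle, 86.0% (85.3 to 86.7) in p38i and 74.4% (73.3 to 75.4) in p38KO. T cells alone held 60.1%, 54.4% and 38.9%. The lymphoid share was lowest in p38KO with these gates, and the intervals did not overlap between libraries. With stricter gates this order was lost, since vehicle then held 95.6%, p38i 87.0% (86.1 to 87.8) and p38KO 88.3% (87.1 to 89.5). The balance in p38KO was held mainly by macrophages, at 10.8% against 2.81% in vehicle and 2.64% in p38i, and by monocytes, at 9.07% against 3.31% and 5.25%. The macrophage level per UMI was 122, 90.6 and 107 CPM. Without the 10 top cells of each library the p38KO ratio to vehicle was 2.20 on the log2 scale (1.61 to 2.85) and called higher. Those 10 cells were a larger part of the 153 vehicle macrophages than of the 457 in p38KO, so no direction is read from that ratio.

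The lymphoid share of Ccl3 was 3.07% (2.74 to 3.43) in vehicle, 10.3% (9.63 to 11) in p38i and 1.99% (1.68 to 2.34) in p38KO. For Ccl4 it was 10.3% (9.74 to 10.9), 17.5% (16.7 to 18.3) and 3.35% (3.03 to 3.70). Both chemokines thus had their largest lymphoid share in p38i and their smallest in p38KO. The lymphoid share of Ccr1 was small, at 0.503%, 0.418% and 0.712%, and with Leiden clusters in place of gates it was 1.36%, 1.59% and 1.58%. Neutrophils held 66.8%, 59.5% and 60.1% of gated Ccr1, monocytes 24.1%, 30.8% and 15.9%, and macrophages 8.43%, 8.92% and 22.8%.

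**Figure D2:**
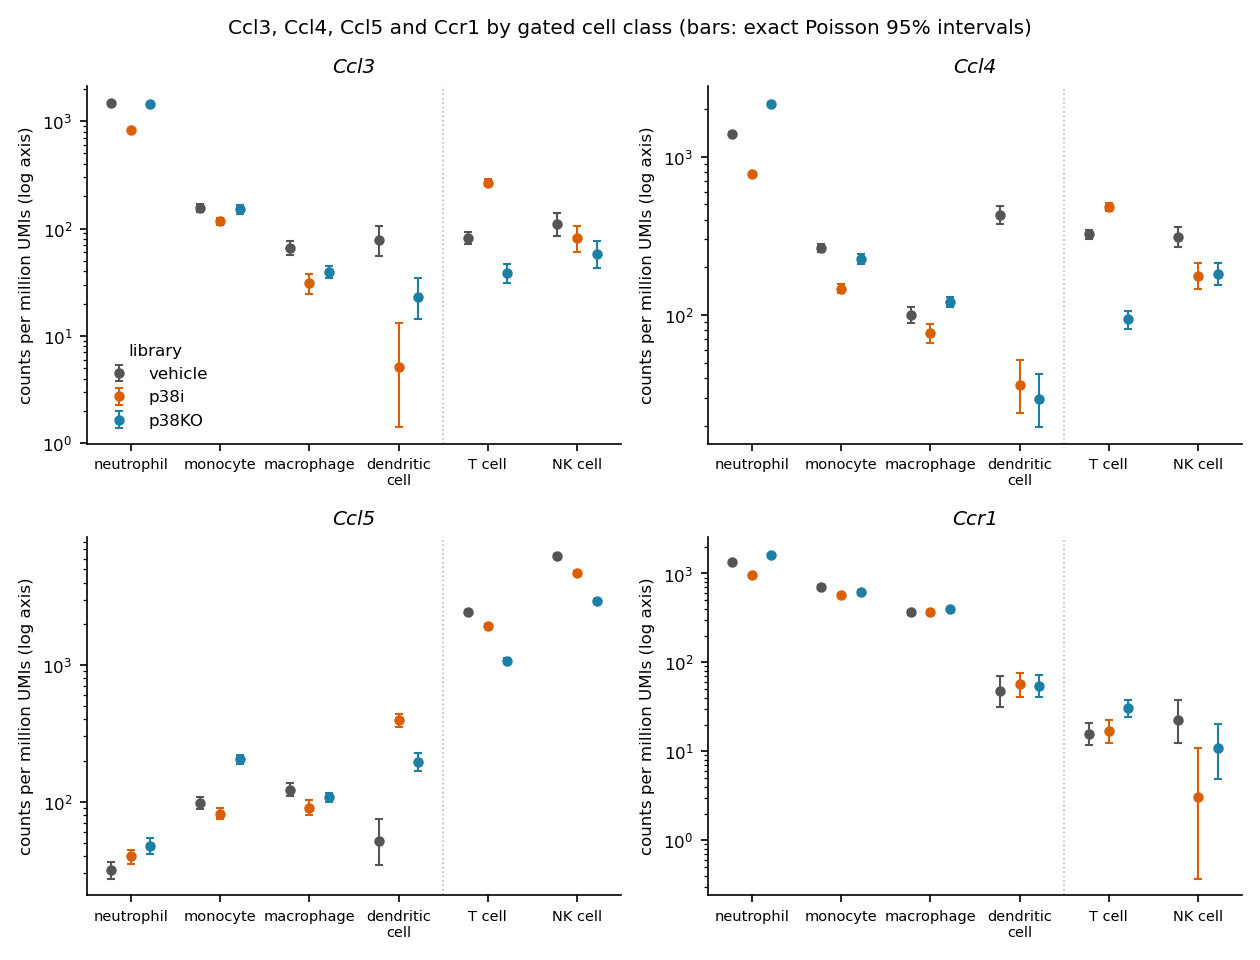
Level of each gene (CPM, log axis) in 6 gated classes, with points for the vehicle, p38i and p38KO libraries and bars for exact Poisson 95% intervals. A dotted line separates myeloid from lymphoid classes. Ccl3, Ccl4 and Ccr1 are highest in neutrophils and Ccl5 in NK cells, whatever the library.

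Ccl3 in neutrophils stood at 1470 CPM (95% Poisson interval 1440 to 1501) in vehicle, 827 CPM (806 to 848) in p38i and 1440 CPM (1405 to 1476) in p38KO. The p38i library was the low one, and the vehicle and p38KO intervals overlapped. Monocytes came next in vehicle and p38KO, at 155 and 151 CPM, and were at 117 CPM in p38i, where T cells stood above them at 267 CPM. The neutrophil level was 9.46 times the monocyte level in vehicle (8.73 to 10.3), 7.05 times in p38i and 9.55 times in p38KO. In vehicle the remaining classes, NK cells, T cells, DC and macrophages at 109, 81.6, 77.6 and 66.0 CPM, could not be ordered, since each interval overlapped the next.

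Ccl4 in neutrophils stood at 1394 CPM (1364 to 1424) in vehicle, 773 CPM (753 to 793) in p38i and 2161 CPM (2117 to 2205) in p38KO. All 3 libraries were apart, with p38i lowest and p38KO highest. In T cells the order ran the other way, at 324 CPM in vehicle, 481 CPM in p38i and 93.7 CPM in p38KO. Neutrophils therefore exceeded T cells 4.31-fold in vehicle, 1.61-fold in p38i and 23.1-fold in p38KO. In NK cells Ccl4 was 309, 177 and 181 CPM.

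The Ccl4 to Ccl3 count ratio was lowest in neutrophils in vehicle and p38i. Neutrophils held 0.948 Ccl4 counts per Ccl3 count in vehicle (0.920 to 0.977), 0.935 in p38i and 1.50 in p38KO. T cells held 3.97, 1.80 and 2.43, and NK cells 2.84, 2.19 and 3.15. The T and NK intervals overlapped in each library. In p38KO neutrophils (1.50) and monocytes (1.49) stood level, and DC were at 1.27 (0.702 to 2.33).

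Ccl5 in NK cells stood at 6307 CPM (6110 to 6509) in vehicle, 4705 CPM (4540 to 4874) in p38i and 2932 CPM (2817 to 3051) in p38KO. In T cells it was 2458 CPM (2402 to 2515), 1927 CPM (1876 to 1980) and 1078 CPM (1038 to 1120). In both lymphoid classes vehicle was highest and p38KO lowest with these gates, with no overlap of the counting intervals. With stricter gates the p38i T cells were level with vehicle, at a log2 ratio of 0.047 (-0.032 to 0.125). In the NK cell cluster, vehicle was at 5315 CPM (5178 to 5455) and p38i at 5131 CPM (4988 to 5278), and these intervals overlapped. There p38KO was lowest, at 2734 CPM. The NK level exceeded the T level by a similar factor throughout, 2.57 in vehicle, 2.44 in p38i and 2.72 in p38KO. Monocytes (97.4, 81.8 and 204 CPM) and macrophages held far less, and neutrophils were lowest or level with DC, at 31.6, 39.7 and 47.7 CPM. The neutrophil clusters described below held at most 15.7 CPM in vehicle and 22.5 CPM in p38i. Part of the Ccl5 of the neutrophil gate thus lay in cells outside those clusters.

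Ccr1 followed an order of neutrophils, monocytes and macrophages in every library. Neutrophils were at 1341 CPM (1312 to 1370) in vehicle, 956 CPM (934 to 979) in p38i and 1629 CPM (1591 to 1667) in p38KO. Monocytes were at 708, 575 and 619 CPM and macrophages at 366, 367 and 394 CPM. DC, T cells and NK cells stayed at or below 56.8 CPM, and in vehicle each interval overlapped the next in order. The neutrophil level was 84.6 times the T cell level in vehicle, 56.1 times in p38i and 53.3 times in p38KO.

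The genes also differed in how their transcripts were spread over cells. Each cell was thinned to 1500 UMIs so that depth was the same in all of them. Ccr1 was then seen in 82.9%, 72.5% and 86.0% of neutrophils, against 93.6%, 85.8% and 92.0% before thinning. Ccl3 was seen in 35.2%, 30.9% and 36.9% of thinned neutrophils, and in 39.5%, 36.2% and 41.3% before thinning, although its CPM was close to that of Ccr1. Ccl4 was seen in 24.4%, 20.8% and 34.8%. A neutrophil with Ccl3 held 6.93, 4.76 and 5.96 counts of it on average after thinning, and one with Ccr1 held 2.66, 2.22 and 3.01. Ccr1 was thus broad and even among neutrophils, and Ccl3 and Ccl4 were concentrated in a minority. The 10 neutrophils with the most counts held between 2.41% and 2.66% of Ccr1 and between 10.4% and 14.2% of Ccl3, over the libraries.

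Among lymphoid cells, Ccl5 was seen after thinning in 67.3%, 70.8% and 52.2% of NK cells and 36.9%, 30.6% and 24.4% of T cells. Before thinning the values were 79.8%, 77.4% and 64.3% of NK cells and 46.0%, 37.0% and 31.7% of T cells. Ccl3 was seen in 4.33%, 5.12% and 2.16% of thinned T cells and Ccl4 in 11.1%, 7.68% and 6.48%. In the p38i library the Ccl4 level of T cells was thus above that of vehicle while the share of cells with a count was not, and no order is read from that share.

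B cells were looked at as a background, though whether they lack these genes was not tested. Taken as ungated cells with at least 2 counts of Cd79a, they numbered only 29, 22 and 12, with median depths of 3273, 2840 and 3734 UMIs, against 2480, 2220 and 2150 in neutrophils and 4932, 3840 and 4610 in T cells. After thinning, 3.45%, 0% and 0% of them had Ccl3 and 6.90%, 0% and 0% had Ccl4. Ccl5 was seen in 3.45%, 4.55% and 0%, and Ccr1 in 3.45%, 0% and 16.7%. These cells were not a clean background, since markers of other classes were high in them. In p38KO, macrophage markers summed to 15433 CPM against 6123 CPM of B cell markers, and a T cell tracer stood at 10.6% of its T gate level. In vehicle, monocyte and neutrophil markers summed to 3935 and 2799 CPM against 8898 CPM of B cell markers. The T and NK shares of Ccl5 and the neutrophil shares of Ccl3, Ccl4 and Ccr1 were above the shares seen in these cells. Those are point values from few and mixed cells, and no background level is set by them. The T cell shares of Ccl3 cannot be told apart from background.

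Free RNA was traced by S100a8 and S100a9, neutrophil transcripts. In T cells the higher of them reached 0.349%, 0.243% and 0.315% of its neutrophil level, so that transcripts carried over from neutrophils at this rate would give Ccl3 5.13, 2.01 and 4.53 CPM where 81.6, 267 and 38.6 CPM were measured. For Ccr1 in T cells the same sum is 4.68, 2.32 and 5.12 CPM, against 15.8, 17.1 and 30.6 CPM measured. Carried transcripts at this rate are far below the T cell level of Ccl3 and a larger part of that of Ccr1. In monocytes the tracer reached 6.65%, 5.42% and 3.08%, against at most 0.425% in macrophages, T cells, NK cells and DC of any library. The tracer cannot tell carried transcripts from S100a8 and S100a9 of the gated cells themselves. The sums for Ccl3 at that rate, 97.8, 44.8 and 44.3 CPM of the 155, 117 and 151 CPM measured, are therefore upper bounds only. The part carried in monocytes was not tested. In neutrophils, T cell tracers would give Ccl5 6.74, 10.3 and 8.81 CPM of the 31.6, 39.7 and 47.7 CPM measured.

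Both chemokine genes that lie side by side were often seen in the same neutrophils. After thinning, Ccl4 was present in 46.0%, 39.9% and 59.9% of neutrophils with Ccl3, and in 12.7%, 12.2% and 20.2% of those without. Ccr1 was present in 83.6%, 77.1% and 87.3% of neutrophils with Ccl3 and in 82.6%, 70.4% and 85.3% of those without. The receptor was therefore seen about as often in neutrophils with its ligand as in those without it, apart from p38i, where the intervals (73.9 to 80.0 and 68.2 to 72.6) did not meet. In T cells Ccl4 was present in 22.9%, 17.3% and 15% of cells with Ccl5 and in 4.25%, 3.44% and 3.71% of those without.

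The first comparison, p38i against vehicle, asks what systemic p38 inhibition is accompanied by in these transcripts. In neutrophils Ccl3 and Ccl4 were each lower in p38i by nearly the same factor. In T cells both were higher in p38i, in a few CD8 cells. Ccl5 did not reach the threshold for a change in T cells or NK cells. A value was called higher or lower where its log2 ratio to vehicle was at least 0.5 either way, its 95% interval left out 0 and at least 20 counts were available over both libraries. Of 24 values, from 4 genes in 6 classes, 23 had enough counts, and 3 were called higher and 7 lower in p38i. Between 6.37% and 15.1% of all genes of a gate were called in this comparison.

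**Figure D3:**
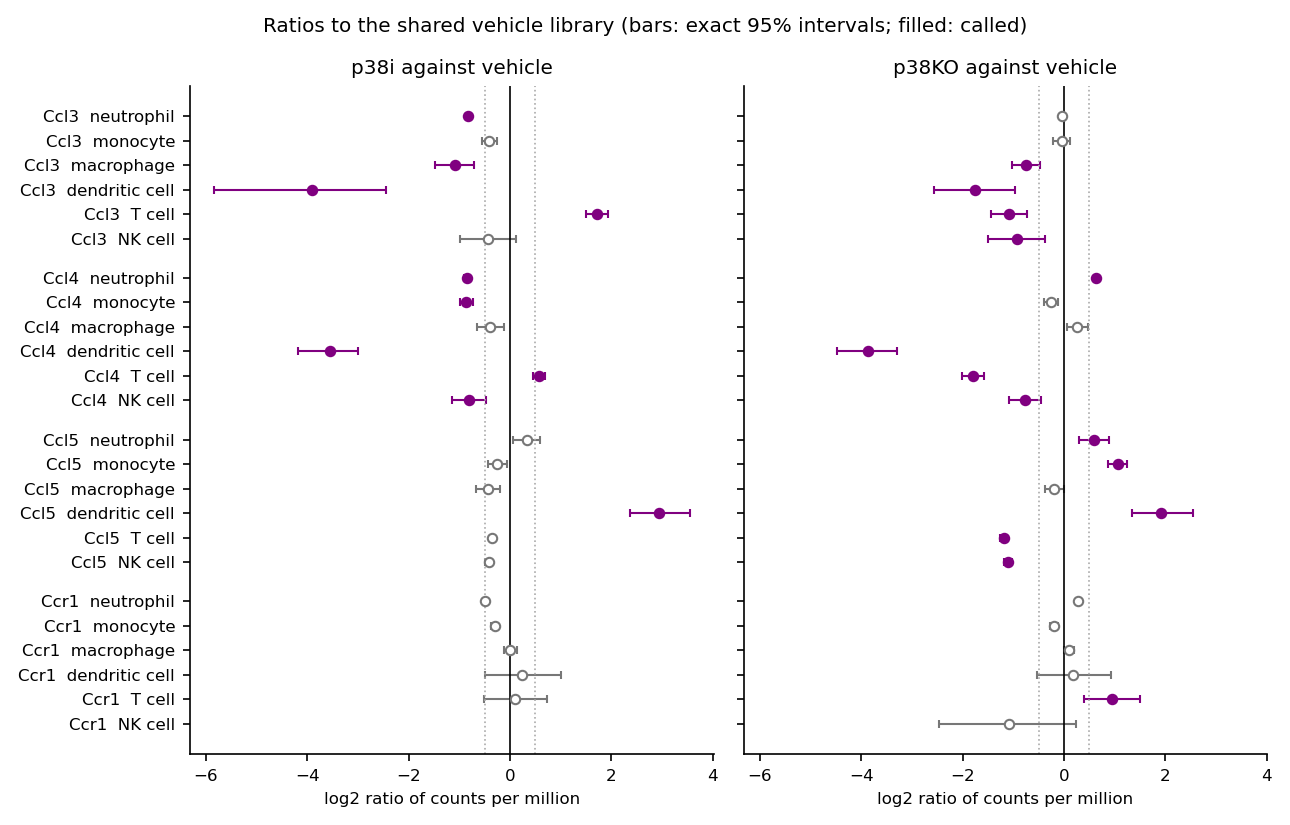
Log2 ratio of CPM to the shared vehicle library for each gene and class, p38i on the left and p38KO on the right, with exact 95% intervals. Filled points are called, open points are not, and dotted lines mark 0.5 either way. Ccl3 and Ccl4 of p38i lie on opposite sides in neutrophils and T cells. Ccr1 of NK cells had too few counts in p38i and is not drawn there.

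In the neutrophil gate, where 15.1% of 9315 genes were called in either direction (12% higher and 3.15% lower), 2 of the 4 genes were called, both lower. Ccl3 fell by 0.83 on the log2 scale (interval -0.88 to -0.78) and Ccl4 by 0.85 (-0.90 to -0.80). Ccr1 had a log2 ratio of -0.49 (-0.53 to -0.44), just short of the threshold. The median of all genes in this gate was 0.12, and relative to that median Ccr1 would be -0.61 and past it. Ccl5 in neutrophils had a log2 ratio of 0.33, and 10 cells held 78.5% and 91.0% of its counts in vehicle and p38i. Without them the ratio was -0.93, and with neutrophil clusters in place of the gate it was -0.98.

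In the monocyte gate, where 7.29% of genes were called (4.56% higher and 2.73% lower), Ccl4 was lower in p38i, with a log2 ratio of -0.86 (-0.99 to -0.74), and the other members were not called. Without the 10 cells with the most counts in each library the Ccl4 ratio was -0.45 and no longer called. In the macrophage gate (6.37% called, 2.63% higher and 3.74% lower), Ccl3 was lower, at 30.9 CPM against 66.0 CPM in vehicle, a log2 ratio of -1.10 (-1.48 to -0.72). Ccr1 in macrophages had a log2 ratio of 0.00 (-0.12 to 0.13). In the DC gate (8.8% called, 5.33% higher and 3.46% lower), Ccl3 and Ccl4 were lower, with log2 ratios of -3.91 and -3.56, and Ccl5 was higher, at 2.93. Between 85.7% and 100% of these DC counts lay in 10 cells of a library, and the values are taken up again with the DC subsets.

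In the T gate, where 7.33% of genes were called (5.06% higher and 2.27% lower), Ccl3 was higher in p38i by a log2 ratio of 1.71 (1.50 to 1.92) and Ccl4 by 0.57 (0.45 to 0.69). Ccl5 had a log2 ratio of -0.35 (-0.40 to -0.30) and was not called. Few cells carried the chemokine increase, since 10 T cells held 76.9% of Ccl3 counts in vehicle and 87.6% in p38i. Without the top 10 cells of each library Ccl3 was still higher, at 0.80, and Ccl4 was not called, at 0.44. In the NK gate (8.65% called, 2.91% higher and 5.74% lower), Ccl4 was lower at -0.81 (-1.15 to -0.47). Ccl3 (-0.43) and Ccl5 (-0.42) of NK cells were not called, and Ccr1 had too few counts.

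The second comparison, p38KO against vehicle, asks what the loss of p38a in the tumor cells is accompanied by in leukocytes whose own gene is intact. Ccl5 was lower in both lymphoid classes. Ccl3 and Ccl4 were also lower in T and NK cells, while in neutrophils Ccl4 was higher and Ccl3 was not called. The vehicle library is shared with the first comparison, so the 2 sets of ratios are not independent. Of 24 values, all had enough counts, and 5 were called higher and 9 lower in p38KO, where between 9.75% and 12.9% of all genes of a gate were called.

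In the neutrophil gate, where 12.9% of 8857 genes were called (10.3% higher and 2.55% lower), Ccl4 was higher in p38KO by a log2 ratio of 0.63 (0.59 to 0.68). Ccl3 had a log2 ratio of -0.03 (-0.08 to 0.02) and Ccr1 one of 0.28 (0.23 to 0.33), neither called. Gated neutrophils of p38KO thus held more Ccl4 per Ccl3 count, as in the count ratio above. With neutrophil clusters in place of the gate, Ccl3 was somewhat lower in p38KO, at -0.18 (-0.22 to -0.14), and Ccl4 was higher at 0.76. The median of all genes in this gate was 0.11, and relative to it Ccl4 was 0.52. Ccl5 in the neutrophil gate was called higher at 0.59, and 10 cells held 71.0% of its counts in p38KO. With neutrophil clusters in place of the gate its ratio was 1.76.

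In the monocyte gate (11.1% called, 8.88% higher and 2.21% lower), Ccl5 was higher in p38KO, at 204 CPM against 97.4 CPM in vehicle, a log2 ratio of 1.06 (0.88 to 1.25), and remained so at 1.60 without the 10 top cells. In the macrophage gate (11.3% called, 7.8% higher and 3.5% lower), Ccl3 was lower at -0.74 (-1.02 to -0.46), but without the 10 top cells its ratio was 0.41, in the other direction and not called. Ccl5 of macrophages had a ratio of -0.19 (-0.37 to 0.00) and one of 2.20 without the 10 top cells, which held up to 93.4% of its counts in a library. For Ccl3 the 10 top macrophages held between 31.1% and 70.1% of the counts in a library. Macrophage values of Ccl3 and Ccl5 therefore depended on few cells. The 10 cells were a larger part of the 153 vehicle macrophages than of the 457 in p38KO, so no direction is read from the ratios without them. In the DC gate (9.75% called, 5.48% higher and 4.27% lower), Ccl3 and Ccl4 were lower at -1.75 and -3.86 and Ccl5 was higher at 1.92, again from few cells.

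In the T gate, where 11.6% of genes were called (8.39% higher and 3.18% lower) and the median of all genes was 0.11, all 4 genes were called. Ccl5 was lower in p38KO by a log2 ratio of -1.19 (-1.25 to -1.12), Ccl4 by -1.79 (-2.00 to -1.58) and Ccl3 by -1.08 (-1.44 to -0.73). Each of these was also lower without the 10 top cells, at -1.33, -1.32 and -2.11. Ccr1 was higher, at 30.6 CPM against 15.8 CPM in vehicle, a log2 ratio of 0.95 (0.40 to 1.50) from 76 and 47 counts. In the NK gate (11.5% called, 5.05% higher and 6.47% lower), Ccl5 was lower by -1.10 (-1.18 to -1.03), Ccl3 by -0.92 (-1.49 to -0.37) and Ccl4 by -0.77 (-1.09 to -0.46).

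Transcripts of other cell types moved with the p38KO library, those of mast cells and basophils among them. The summed level of 5 such markers was 88.1 CPM in p38KO T cells against 19.9 in vehicle and 20.7 in p38i, with 5 markers detected against 1 and 2. In NK cells it was 641 CPM in p38KO against 48.9 and 25.9, and in neutrophils 95.8 CPM against 8.61 and 16.6. Other markers moved too. The 5 NK cell markers summed to 5749 CPM in p38KO NK cells against 8465 in vehicle and 8884 in p38i, and to 308 CPM in p38KO T cells against 545 and 506. Macrophage markers summed to 175 CPM in p38KO T cells against 53.6 and 46.8, and to 164 CPM in p38KO NK cells against 47.2 and 33.6. The part of these markers in the p38KO values of Ccl3, Ccl4 and Ccl5 was not tested.

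T cell subsets, set by Cd8a and Cd8b1, Cd4, Foxp3, Trdc and Pdcd1, placed most chemokine counts of the T gate in CD8 cells, except for Ccl3 in p38KO, of which CD8 cells held 13.5%. CD8 cells, the cytotoxic subset, held 89.8% and 88.9% of the Ccl5 counts of the gate in vehicle and p38i and 74.5% in p38KO. They were 50.3% of the T gate in vehicle, 37.7% in p38i and 28.3% in p38KO (244, 221 and 131 cells). The share of CD8 cells thus moved the same way as the T cell level of Ccl5. A sum over the gate does not tell the number of CD8 cells from the Ccl5 of each, and the part of either was not tested.

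**Figure D4:**
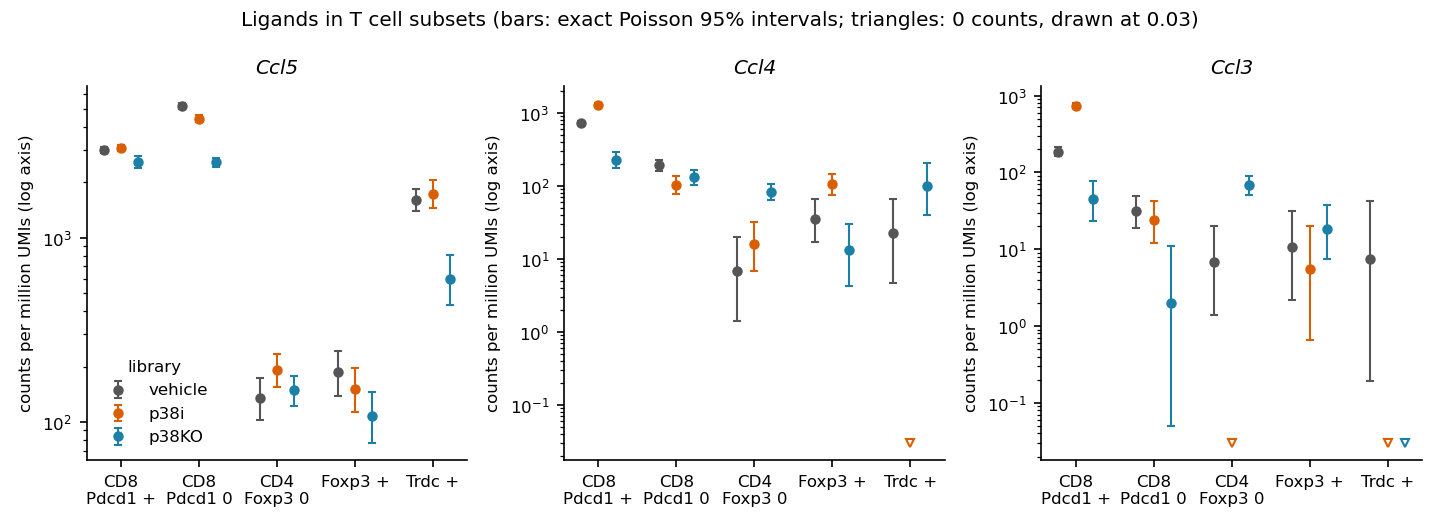
Level of Ccl5, Ccl4 and Ccl3 (CPM, log axis) in subsets of gated T cells, with points for the 3 libraries, exact Poisson 95% intervals as bars and open triangles for 0 counts. Ccl5 is high in CD8 and Trdc subsets and low in CD4 cells without Foxp3 and in Foxp3-positive cells, and Ccl3 and Ccl4 of the vehicle and p38i libraries are highest in CD8 cells with Pdcd1.

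Within CD8 cells Ccl5 was 3768 CPM in vehicle, 3532 CPM in p38i and 2573 CPM in p38KO. The p38i ratio was -0.09 (-0.15 to -0.04) and not called, and the p38KO ratio was -0.55 (-0.62 to -0.48) and called lower, less than in the whole T gate. After thinning, Ccl5 was seen in 57.4%, 60.6% and 60.3% of CD8 cells, with no library apart. The CD8 level exceeded that of CD4 cells without Foxp3 28.0-fold in vehicle, 18.4-fold in p38i and 17.3-fold in p38KO.

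CD8 cells were next split by Pdcd1, which encodes the checkpoint receptor PD-1, found on activated and exhausted T cells. Ccl5 was lower in CD8 cells with Pdcd1 than in those without it in vehicle, at 0.577 times, and in p38i, at 0.692 times, and equal in p38KO, at 1.00 times. In the cells without Pdcd1 it was 5201 CPM in vehicle, 4425 CPM in p38i and 2569 CPM in p38KO, a log2 ratio of -1.02 (-1.11 to -0.92) for p38KO. In those with Pdcd1 it was 3000, 3060 and 2580 CPM, not called in either comparison. Without the 10 top cells of each library the p38KO ratio of the cells with Pdcd1 was -0.80 (-1.03 to -0.59) and called lower. Those 10 cells were a larger part of the 45 such cells in p38KO than of the 138 in vehicle, so no direction is read from that ratio. The difference between CD8 cells with and without Pdcd1 was not tested.

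Ccl3 and Ccl4 showed the opposite preference. Ccl3 was 186 CPM in vehicle CD8 cells with Pdcd1 and 31.4 CPM in those without, a factor of 5.92, and 740 and 23.8 CPM in p38i, a factor of 31.1. Ccl4 was 727 and 191 CPM in vehicle, a factor of 3.80, and 1292 and 104 CPM in p38i, a factor of 12.4. Both chemokines were thus highest in Pdcd1-positive CD8 cells in these libraries. In p38KO only 45 such cells were found, against 138 and 125, and Ccl4 there was 228 CPM against 132 CPM, a factor of 1.73. Against vehicle, the log2 ratio of Ccl3 in these cells was 2.0 for p38i (1.77 to 2.23) and -2.05 for p38KO (-3.03 to -1.22), and that of Ccl4 was 0.83 and -1.67. Without the 10 top cells of each library the p38i ratios were 0.95 (0.24 to 1.68) for Ccl3 and 1.24 (0.88 to 1.61) for Ccl4. The p38KO value of Ccl3 rests on 12 counts. In the whole T gate, 10 cells held between 76.9% and 88.5% of Ccl3 counts in a library, so these Ccl3 values depended on few cells.

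CD4 cells without Foxp3, the helper subset, stood out in p38KO for the receptor with these gates. Ccr1 in them was 16.0 CPM in vehicle, 14.0 CPM in p38i and 61.0 CPM in p38KO, from 7, 7 and 46 counts in 94, 125 and 141 cells. The log2 ratio for p38KO was 1.94 (0.78 to 3.33). Before thinning 21.3% of these p38KO cells had a Ccr1 count, against 7.45% in vehicle and 5.6% in p38i. In CD8 cells Ccr1 was 17.3, 18 and 7.73 CPM. In the following T cell clusters, which also hold ungated cells, p38KO was not apart from both other libraries. Ccr1 was 34.9, 82.1 and 92.5 CPM in the cluster led by Lgals7 and Cd4. It was 106, 75.3 and 86.9 CPM in that led by S1pr1 and Tcf7, and 72.8, 89.3 and 91.1 CPM in that led by Foxp3. The gated p38KO CD4 cells without Foxp3 held 51 of the 96 Ccl3 counts of the T gate, or 67.7 CPM, against 3 counts in vehicle and 0 in p38i. All 51 counts lay in 7 of the 141 cells, and 41 of them in a single cell. A count of 0 among the 125 p38i cells allows up to 2.40% of cells with a Ccl3 count, which does not limit the share that express the gene.

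Foxp3-positive cells, the regulatory subset, numbered 56, 93 and 74 and held Ccl5 at 186, 151 and 107 CPM. Trdc-positive cells, set by a gene of the gamma-delta T cell receptor, numbered 24, 19 and 13. Their Ccl5 was 1599 CPM in vehicle, 1732 CPM in p38i and 597 CPM in p38KO, with 42 counts in p38KO and a log2 ratio of -1.42 (-1.94 to -0.94). Within the limits of so few cells, this subset came second to CD8 cells in Ccl5 per UMI in each library. The cluster led by Trdc and Tcrg-C1, named gamma-delta T, held Ccl5 at only 9.70, 9.59 and 0 CPM in 18, 19 and 16 cells. In the NK gate 1 of 3 gamma-delta markers was also detected, at 155, 142 and 108 CPM. The Ccl5 of Trdc-positive cells is therefore not assigned to gamma-delta T cells.

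Among neutrophils, Ccl3 and Ccl4 varied far more than the receptor. Cxcr2, the receptor that draws neutrophils from the blood and that they lose with age in tissue, was used first to split the gate. Neutrophils with no Cxcr2 count held Ccl3 at 2601 CPM in vehicle, 1154 CPM in p38i and 2530 CPM in p38KO, against 1155, 743 and 1205 CPM in those with Cxcr2. The Cxcr2-negative side was higher by factors of 2.25, 1.55 and 2.10 for Ccl3 and of 1.92, 1.24 and 1.88 for Ccl4. Ccr1 went the other way, with factors of 0.783, 0.818 and 0.755. Cells with no Cxcr2 count were somewhat shallower, at 2228, 2002 and 1959 UMIs against 2556, 2300 and 2212. The p38i ratio of Ccl3 was lower on both sides, at -1.17 without Cxcr2 and -0.64 with it.

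**Figure D5:**
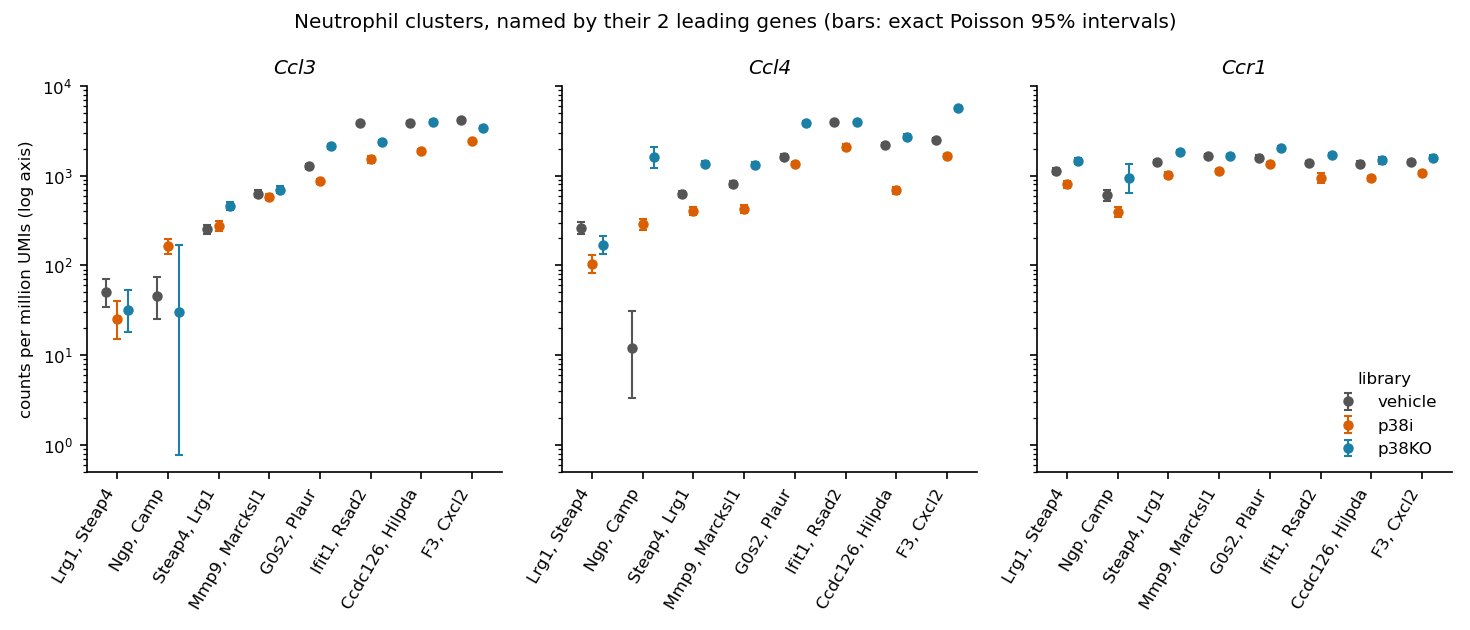
Level of Ccl3, Ccl4 and Ccr1 (CPM, log axis) in 8 neutrophil clusters named by 2 leading genes, in the same order in each panel, with exact Poisson 95% intervals. Over the clusters, pooled Ccl3 spans 88.6-fold, Ccl4 21.2-fold and Ccr1 3.31-fold. The p38i points of Ccr1 lie below those of vehicle in 8 of 8 clusters.

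Unsupervised clustering, built with the 4 genes left out, gave 8 neutrophil clusters. Pooled Ccl3 ran from 36.0 CPM in a cluster led by Lrg1, Steap4 and Cebpd to 3186 CPM in a cluster led by F3, Cxcl2 and Cxcl3, a span of 88.6-fold. Ccl4 ran from 177 CPM in the same low cluster to 3747 CPM in a cluster led by the interferon-induced genes Ifit1 and Rsad2, a span of 21.2-fold. Ccr1 ran only from 481 CPM, in the cluster led by the granule genes Ngp, Camp and Ltf, to 1593 CPM in one led by G0s2 and Plaur, a span of 3.31-fold. Neutrophil states thus differed in the ligands much more than in the receptor. These spans describe clusters chosen from the same cells and carry no test.

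The F3-led cluster held Ccl3 at 4127 CPM in vehicle, 2418 CPM in p38i and 3406 CPM in p38KO, and Ccl4 at 2526, 1654 and 5683 CPM. The Ifit1-led cluster held Ccl4 at 3973, 2089 and 3971 CPM and was 13.7%, 3.95% and 22.1% of cells in neutrophil clusters. The high Ccl4 of p38KO neutrophils was therefore not confined to this larger cluster. When every cluster was given its vehicle share, Ccl4 of p38KO had a log2 ratio of 0.74, against 0.76 with the shares as found, and was higher in 6 of 8 clusters. For p38i the same step gave -0.88 in place of -0.91 for Ccl3, lower in 6 of 8 clusters, and -0.81 in place of -0.93 for Ccl4, lower in 7 of 8. Ccr1 of p38i was -0.46 both ways and lower in 8 of 8. With the cluster shares alone changed, the log2 ratio was 0.195 for Ccl4 of p38KO. In p38i it was then -0.14 for Ccl3, -0.22 for Ccl4 and -0.023 for Ccr1. The part of the cluster shares in the ratios was not tested.

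Dendritic cells were few, and their chemokine counts sat in small subsets. DC with Ccr7, the receptor of migratory DC, numbered 3 in vehicle, 10 in p38i and 7 in p38KO. They held Ccl5 at 53.5, 3488 and 2372 CPM, whereas the other DC held it at 51.7, 5.81 and 14.8 CPM. The higher Ccl5 of DC in p38i and p38KO thus came from 10 and 7 cells. The vehicle DC value of 51.7 CPM is also close to what NK cell transcripts carried at the tracer rate of 0.808% would give, 51.0 CPM. For Ccl4, a split by Siglech, a marker of plasmacytoid DC, was chosen after its values were seen. The 16 Siglech-positive DC of vehicle held 1286 CPM, against 79.4 CPM in 32 such cells of p38i and 31.7 CPM in 23 of p38KO.

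Macrophages were split by Mki67, a gene of dividing cells. Ccl5 was 53.2, 24.7 and 44.5 CPM in macrophages with Mki67 and 164, 117 and 154 CPM in those without it. Ccr1 was 358, 276 and 345 CPM against 371, 403 and 430 CPM. Ccl5 was lower on the dividing side in each library, with no overlap of the counting intervals. However, 10 macrophages held between 59.8% and 93.4% of its counts in a library, so no direction is read from that split. The receptor was close on both sides in vehicle and lower on the dividing side in p38i and p38KO.

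The rest of the pathway was followed in 12 further genes, the ligands Ccl6, Ccl7, Ccl8 and Ccl9, the receptors Ccr3, Ackr2 and Ccrl2, and the signalling genes Gnai2, Gnai3, Arrb2, Rgs1 and Rgs2. Of 72 values over the 6 classes, 53 had enough counts in p38i, of which 2 were higher and 15 lower than in vehicle, where between 6.37% and 15.1% of all genes of a gate were called. In p38KO 56 had enough counts, of which 10 were higher and 12 lower, where between 9.75% and 12.9% of all genes were called. Among the ligands, Ccl8, a monocyte-attracting chemokine, was 825 CPM in vehicle macrophages, 566 CPM in p38i and 2651 CPM in p38KO, with log2 ratios of -0.54 and 1.68. Ccl7, another of that group, was 57.6, 78.3 and 234 CPM in monocytes, higher in p38KO by 2.02. Ccl6, a ligand of Ccr1, was lower in p38KO macrophages, at 463 CPM against 930 CPM in vehicle. Ccl9, also a Ccr1 ligand, was higher in neutrophils of both groups, at 43.4, 81.3 and 102 CPM, and lower in macrophages of both, at 294, 205 and 169 CPM.

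Among the receptors, Ccrl2, an atypical receptor that binds chemerin without signalling, was 1638, 859 and 2038 CPM in neutrophils. Its p38i ratio there, -0.93, was close in size to those of Ccl3 and Ccl4. Among the signalling genes, Rgs1, which dampens chemokine receptor signals, was lower in NK cells of both groups, at 850 CPM in vehicle, 131 CPM in p38i and 154 CPM in p38KO. It was also lower in both groups in monocytes, at 226, 78.6 and 80.8 CPM, and in macrophages, at 567, 134 and 214 CPM. In neutrophils (44.6, 27.0 and 38.1 CPM) it was called lower in p38i only, and in DC (49.9, 59.3 and 85.0 CPM) higher in p38KO only. In T cells it was 420, 149 and 322 CPM, lower in p38i by -1.50 and not called in p38KO. Gnai2, Gnai3 and Arrb2, which carry or end the receptor signal, were called in no class.

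Genes with the most similar pattern were sought over the 18 values of 6 classes and 3 libraries, which share cells, libraries and depth, so the correlations are descriptions only. Among 2840 genes, Ccl3 was closest to Kdm3a (Pearson r of log2(CPM + 1) 0.946), then to Ccl4 (0.930), Ell (0.919), Ddit3 (0.913) and Pag1 (0.904). Ccl4 was closest to Ccl3, then to Ccnl2 (0.863), Kdm3a (0.855), Resf1 (0.855) and Arid5a (0.851). Ccl5 was closest to Srrm2 (0.960), Fip1l1 (0.956), Usp34 (0.955), Rbl2 (0.954) and Ppp3cc (0.952), and Ccr1 to Lst1 (0.985), Atp6v0c (0.978), Ftl1 (0.977), Nampt (0.976) and Lamp2 (0.974). Between the members themselves, r was 0.483 for Ccl3 with Ccr1 and -0.879 for Ccl5 with Ccr1.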

How the data were processed

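Live CD45+ cells of 3 mouse tumor pools, 1 library per group, were profiled with 3′ single-cell RNA sequencing. Reads were aligned by the authors in Cell Ranger (6.0.0 in the file headers) to a mouse reference, mm10 per the labels, and the authors deposited unnormalized UMI counts per gene and barcode, with R 4.2.1 and Seurat 5 also named in the submitters' processing notes. The deposited counts were not filtered by the study's limits. Here, the limits of the study were applied, namely a minimum of 1500 UMIs and of 300 genes and a maximum of 20% of UMIs from mitochondrial genes. They left 12472 of 16143 barcodes, of which 10528 were gated.

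Gates used raw counts: macrophages needed at least 2 of C1qa, monocytes at least 2 of Ly6c2 and Fn1 together and more than of Csf3r and Cxcr2, and the others at least 1 of their gene. A gate allowed no Cd3e, Ncr1 or Flt3 beyond its own and at most 1 C1qa outside macrophages. T, NK and DC gates also had no Csf3r or Cxcr2, and T and NK gates no Fn1. T subsets were CD8 (Cd8a or Cd8b1, no Cd4 or Foxp3), CD4 (no CD8 gene or Foxp3), Foxp3-positive (no CD8 gene) and Trdc-positive (none of these). Counts were summed per gate and library and given as CPM of the gate's total with exact Poisson 95% intervals, ratios with exact conditional binomial intervals (0.5 standing in for a count of 0), and shares with Clopper-Pearson intervals. UMIs were drawn without replacement for thinning. The clustering used 2000 variable genes without the 4 examined and the pathway list, 30 principal components, 15 neighbours and Leiden resolution 1, with no batch correction, and gave 25 clusters.

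Scrublet's automatic threshold marked 3, 5 and 3 barcodes, too few to have worked, so no doublets were removed in the values reported, and leaving out the 5% of cells with the highest scores is an alternative. Other alternatives were no cell filter, stricter gates, Leiden classes, equal weight per cell, scaling by the median gene and leaving out the 10 cells with the most counts. Those 10 cells are a larger part of a small gate than of a large one. The ratio code was tested on simulated data. Named genes were the 4 members, 12 pathway genes (1 more of that list is not reported here), and the 5 genes of most similar pattern per member that reached 100 CPM, leaving out mitochondrial, ribosomal, Gm-numbered and Rik genes. The members and all lists were chosen with earlier results of these data known. The UMIs summed per gate, fewest in DC and in NK cells, set the width of the intervals. Tools were Python 3.11.15, numpy 2.4.6, scipy 1.17.1, pandas 2.3.3, scanpy 1.11.5, anndata 0.12.19, leidenalg 0.10.2, scikit-learn 1.9.0 and matplotlib 3.10.9. Positions came from GENCODE M21, matched by gene identifier, and promoters from RefSeq on GRCm38.p6.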

Additional observations from a re-analysis of the deposited data

Results flagged for a closer look

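For 4 values the ratio to vehicle went in opposite directions in T cells and neutrophils. The difference between both classes was not tested, since each group is 1 library. In p38i, Ccl3 had a log2 ratio of 1.71 in T cells and -0.83 in neutrophils, a gap of 2.54. Ccl4 of p38i had 0.57 in T cells and -0.85 in neutrophils, a gap of 1.42.

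In p38KO the directions were turned round. Ccl4 had a log2 ratio of -1.79 in T cells and 0.63 in neutrophils, a gap of -2.42. Ccl5 had -1.19 in T cells and 0.59 in neutrophils, a gap of -1.78. The neutrophil side of Ccl5 rests on a small part of the gate, since 10 gated cells held 78.5% of its counts in vehicle and 71.0% in p38KO. Some of these counts lay in cells outside the neutrophil clusters, where Ccl5 reached at most 15.7 CPM in vehicle against 31.6 CPM in the gate. With the clusters in place of the gate the neutrophil ratio of p38KO was 1.76. Without the 10 cells with the most counts in each library, the T cell and neutrophil ratios of these genes were 0.80 and -0.86 for Ccl3 in p38i and 0.44 and -0.78 for Ccl4 in p38i. For p38KO they were -1.32 and 0.71 for Ccl4 and -1.33 and 1.03 for Ccl5. The directions were still opposite in all 4 cases.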

How the results depend on the processing

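Alternatives were run for 12 lymphoid shares and 8 log2 ratios (Ccl3, Ccl4 and Ccr1 in neutrophils, Ccl5 in T cells). No called ratio among these 8 changed direction, and a share has no direction to change. Values of other classes were not entered. Among those, Ccl3 of p38KO macrophages was called lower at -0.74, and was 0.41 without the 10 top cells. Of the 8 ratios, among those not called, Ccl5 of p38i T cells changed sign with stricter gates, to 0.047. Ccl3 of p38KO neutrophils did so without the 5% of cells with the highest Scrublet scores, to 0.028. With stricter gates the Ccl5 share of p38KO (88.3%) was also above that of p38i (87%). Of 56 alternative ratios 35 lay outside the counting interval of the reported value, and of 60 alternative shares 31 did. The threshold was crossed for Ccr1 of p38i neutrophils with scaling by the median gene and, at -0.50, without the 5% of cells with the highest Scrublet scores, and for Ccl5 of p38i T cells with equal weighting, and the cause was not tested. No paired analysis was possible because each group has 1 library, and for the same reason leaving out a replicate was not run.

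With Leiden clusters in place of gates, the lymphoid shares moved to 4.19% (vehicle) and 3.4% (p38KO) for Ccl3, 1.36% (vehicle), 1.59% (p38i) and 1.58% (p38KO) for Ccr1, 19.9% (p38i) and 5.1% (p38KO) for Ccl4, 87.5% (p38i) and 69.2% (p38KO) for Ccl5. There the log2 ratios moved to -0.91 (p38i) and -0.18 (p38KO) for Ccl3, -0.93 (p38i) and 0.76 (p38KO) for Ccl4, -0.46 (p38i) and -1.30 (p38KO) for Ccl5. With each cell weighted equally, the lymphoid shares moved to 1.54% (vehicle), 5.11% (p38i) and 1.22% (p38KO) for Ccl3, 5.88% (vehicle), 11.1% (p38i) and 2.53% (p38KO) for Ccl4, 95% (vehicle), 90.2% (p38i) and 80.7% (p38KO) for Ccl5, 0.339% (vehicle) and 0.54% (p38KO) for Ccr1. There the log2 ratios moved to -0.68 (p38i) and -0.14 (p38KO) for Ccl3, -0.72 (p38i) and 0.56 (p38KO) for Ccl4, -0.42 (p38i) for Ccr1, -0.57 (p38i) and -1.34 (p38KO) for Ccl5. With scaling by the median gene, the log2 ratios moved to -0.96 (p38i) and -0.14 (p38KO) for Ccl3, -0.98 (p38i) and 0.52 (p38KO) for Ccl4, -0.61 (p38i) and 0.17 (p38KO) for Ccr1, -0.43 (p38i) and -1.30 (p38KO) for Ccl5. With no cell filter, the lymphoid shares moved to 8.56% (p38i) for Ccl3, 15.5% (p38i) and 3.02% (p38KO) for Ccl4. There the log2 ratios moved to -0.69 (p38i) for Ccl3, -0.78 (p38i) for Ccl4, -0.43 (p38i) for Ccr1. With stricter gates, the lymphoid shares moved to 95.6% (vehicle), 87% (p38i) and 88.3% (p38KO) for Ccl5, 11.4% (p38i) and 1.39% (p38KO) for Ccl3, 1.06% (p38KO) for Ccr1. There the log2 ratios moved to -0.72 (p38i) for Ccl3, -0.71 (p38i) and 0.59 (p38KO) for Ccl4, 0.047 (p38i) and -1.27 (p38KO) for Ccl5. Without the 10 cells with the most counts of a gene, chosen after seeing the data, the log2 ratios moved to -0.092 (p38KO) for Ccl3, -0.78 (p38i) and 0.71 (p38KO) for Ccl4, -1.33 (p38KO) for Ccl5. Without the 5% of cells with the highest Scrublet scores, the lymphoid shares moved to 11% (p38i) for Ccl3, 77.6% (p38KO) for Ccl5. There the log2 ratios moved to -0.77 (p38i) and 0.028 (p38KO) for Ccl3.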

Other observations

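The highest levels of Ccl3 and Ccl4 were in a small cluster led by Mcpt8, Il4 and Gata2, genes of basophils, the blood granulocytes of type 2 responses. No gate was made for these cells, and only part of them were ungated. The cluster held 180, 196 and 527 Ccl3 counts, while all ungated cells of mast cell or basophil clusters held 117, 45 and 172. The remaining counts therefore entered the sums of the gated classes. The cluster numbered 6 cells in vehicle, 12 in p38i and 20 in p38KO, and its description was chosen after its values were seen. Ccl3 was 7772, 4164 and 7223 CPM and Ccl4 was 13903, 9094 and 5880 CPM. Ccl3 was thus 5.29, 5.04 and 5.02 times the neutrophil level, and Ccl4 9.98, 11.8 and 2.72 times. Ccr1 there was 475, 404 and 397 CPM.

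Ungated cells held 28.3%, 18.7% and 24.8% of the Ccl3 counts of all kept cells in vehicle, p38i and p38KO, and 18.6%, 17.3% and 24.4% of those of Ccl5. Most ungated Ccl3, 87.1%, 76.6% and 76.0%, lay in cells of neutrophil clusters.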
